A study of Mus musculus with 4 samples.

Results

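The nuclear genes for the subunits of respiratory complexes III, IV and V were examined in brain RNA of 2 inbred mouse strains and their reciprocal hybrids. Genes were taken by name: those starting with Uqcr, Cox4i, Cox5, Cox6, Cox7, Cox8 or Atp5, and Usmg5, with names containing -ps left out. This gave 44 genes of 45187 in the tables, 8 of complex III, 18 of complex IV, 16 of complex V and 2 others, Atp5s and Atp5sl, whose products are not ATP synthase subunits. The mitochondrial genes of these complexes were not included. The groups were F1r, hybrids written as CAST/EiJ x C57BL/6; F1i, hybrids written as C57BL/6 x CAST/EiJ; CAST, the CAST/EiJ strain derived from wild Mus musculus castaneus; and B6, the laboratory strain C57BL/6. All groups were wild type with no treatment given; the labels give no age, no sex and no dam of the crosses. For each group, left hemispheres of 5 mice went into 1 library (the series design names whole brain). The differences below therefore have no replicates behind them, and neither errors nor p-values are given. A bulk library cannot tell fewer cells of a type from less RNA per cell.

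Complex III passes electrons from ubiquinol to cytochrome c, complex IV passes them from cytochrome c to oxygen, and both pump protons across the inner mitochondrial membrane. Complex V, ATP synthase, uses the returning protons to make ATP. Neurons depend heavily on this pathway, and several complex IV subunits exist as a widely used isoform and a tissue-restricted one. Levels are FPKM, fragment counts corrected for the length of the transcript and the size of the library, summed over the transcripts of a gene, so they are per length and can be compared between genes. Differences are of log2(FPKM + 1), a scale that understates the change of low genes, and genes at least 2-fold apart on it were counted.

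Much of the account turns on near-identical copies of subunit genes elsewhere in the genome, most of them processed pseudogenes. Coding sequence of 3 genes is shown beside a copy, since a read inside a run that both share matches either: the end of Cox7a2l, a middle stretch of Cox5b and the whole of Uqcr11. Coordinates are those of the whole gene or copy. Gene and copy are in lower case, 5′ to 3′ on their own strand, with differing bases in capitals. Sequences are GENCODE M21 transcripts on GRCm38.
Cox7a2l (chr17:83501919-83514333, minus strand): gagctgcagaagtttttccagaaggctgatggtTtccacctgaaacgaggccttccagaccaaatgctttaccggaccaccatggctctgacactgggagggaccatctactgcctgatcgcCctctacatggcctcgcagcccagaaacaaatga
Gm6969 (chr12:24638669-24639010, minus strand): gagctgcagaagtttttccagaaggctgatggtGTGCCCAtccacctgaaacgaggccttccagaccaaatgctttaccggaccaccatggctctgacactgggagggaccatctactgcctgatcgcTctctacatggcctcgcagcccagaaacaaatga
Cox5b (chr1:36691484-36693681, plus strand): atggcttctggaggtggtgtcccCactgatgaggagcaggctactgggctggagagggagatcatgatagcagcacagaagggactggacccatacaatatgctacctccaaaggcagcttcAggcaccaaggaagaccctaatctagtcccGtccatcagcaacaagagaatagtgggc
Gm11273 (chr13:21501029-21501418, minus strand): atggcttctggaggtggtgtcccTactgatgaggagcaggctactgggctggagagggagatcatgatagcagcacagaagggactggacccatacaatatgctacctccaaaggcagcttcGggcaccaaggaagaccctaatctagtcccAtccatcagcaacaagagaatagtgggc
Uqcr11 (chr10:80402997-80406830, minus strand): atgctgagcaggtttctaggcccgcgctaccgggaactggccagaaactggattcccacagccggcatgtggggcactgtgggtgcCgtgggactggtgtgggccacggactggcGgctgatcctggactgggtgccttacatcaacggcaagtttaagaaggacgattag
Gm16418 (chr1:166431705-166431875, minus strand): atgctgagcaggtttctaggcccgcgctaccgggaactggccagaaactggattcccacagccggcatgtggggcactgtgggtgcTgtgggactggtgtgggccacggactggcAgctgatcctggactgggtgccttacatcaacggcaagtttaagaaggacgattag
With positions counted from 1 at the A of the gene's start codon, and the gene's base written before the copy's, Cox7a2l differed from Gm6969 by T214A and C303T over 342 aligned positions. Gm6969 also carried 6 bases that the reference Cox7a2l lacks. As background, C57BL/6 mice are known to carry a Cox7a2l allele with a short in-frame deletion that many other strains lack. Cox5b differed from Gm11273 by C114T, A213G and G243A over 390 positions, and Uqcr11 from Gm16418 by C87T and G116A over 171 positions. Usmg5 and its copy Gm14539 (chrX:20581141-20581314, minus strand) were identical over the 174 coding positions.

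Most subunit genes were abundant and alike in the 4 libraries. Of the 44 genes, 41 had a mean FPKM of at least 1 and were compared; Cox4i2 and Cox7b2 fell below that level and Cox8c was listed at 0 in every library. The tested genes of complex V lay between 55.3 and 820.8 FPKM across all libraries. In complex IV they ran from 1.64 FPKM, for a muscle isoform, to 984.8 FPKM for Cox8a. In complex III they ran from 1.59 to 380.5 FPKM, and Uqcrc1 was lowest there in all 4 libraries. Summed FPKM of complex III was 1277.5 in F1r, 1363.2 in F1i, 1181.5 in CAST and 1430.1 in B6. The complex IV sum was 4075.7 in F1r, 4368.1 in F1i, 3913.3 in CAST and 4630.3 in B6. For complex V the sum was 4036.5 in F1r, 4317.7 in F1i, 3920.6 in CAST and 4805.9 in B6. All 3 sums were lower in CAST than in B6, by log2 ratios of -0.28, -0.24 and -0.29 for complexes III, IV and V. They were also lower as a share of the FPKM of all genes, small RNA names and transcripts under 200 bases left out. Complex III was at 0.193% in CAST and 0.203% in B6. Complex IV was at 0.638% in CAST and 0.657% in B6, and complex V at 0.639% in CAST and 0.682% in B6. Median-ratio scaling gave -0.34, -0.30 and -0.36. Rescaling to a common total over all transcripts, short ones and small RNAs included, gave 0.07, 0.10 and 0.05. It also moved the median of all genes to 0.32. The direction of the sums thus depended on whether those transcripts were counted in the total.

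**Figure D1:**
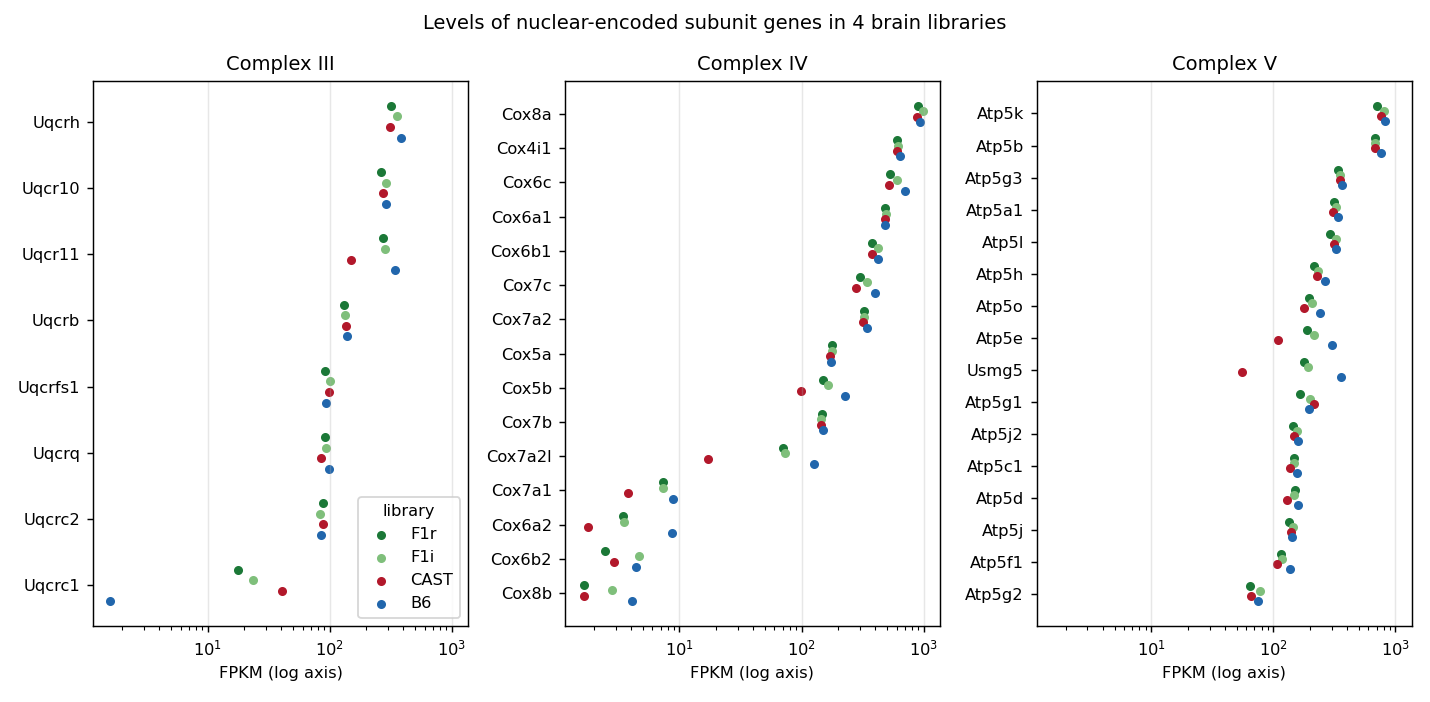
FPKM (log axis) of the tested genes of complexes III, IV and V, 1 point per library (F1r, F1i, CAST, B6), genes ordered by their mean. The points of most genes nearly coincide, whereas Uqcrc1, Uqcr11, Cox5b, Cox7a2l, Cox7a1, Cox6a2, Cox8b, Atp5e and Usmg5 spread apart, with CAST and B6 at the ends. Cox6b2 also spreads, with F1r and F1i at the ends.

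Between the strains, 1 of the 41 genes was at least 2-fold higher in CAST than in B6 and 7 were at least 2-fold lower, that is 2.44% and 17.1% of them. Over all 13751 genes compared, 2.84% were higher and 2.25% lower by that rule. The genes were Uqcrc1 on the higher side and Cox7a2l, Usmg5, Cox6a2, Atp5e, Uqcr11, Cox5b and Cox7a1 on the lower side. Taking the 41 genes together, those past 2-fold included, differences leaned to lower values in CAST, with 36 below 0. Their median was -0.18, with quartiles of -0.46 and -0.05. Over all genes the median was 0.04, with quartiles of -0.16 and 0.23. With libraries rescaled to a common total the median of the 41 genes was 0.16, or -0.15 relative to the median of all genes. On that scale 4 genes were 2-fold lower, Cox5b, Cox7a1 and Uqcr11 being lost. After the median of all genes was subtracted there were 6, Cox7a1 being lost. That scale compared 11966 genes in all, and their share past 2-fold is not given. The 4 and 6 therefore cannot be set beside the 2.25% above. All 15 tested complex IV genes were below 0 (median -0.42), as were 15 of 16 complex V genes (median -0.18) and 5 of 8 complex III genes (median -0.05).

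**Figure D2:**
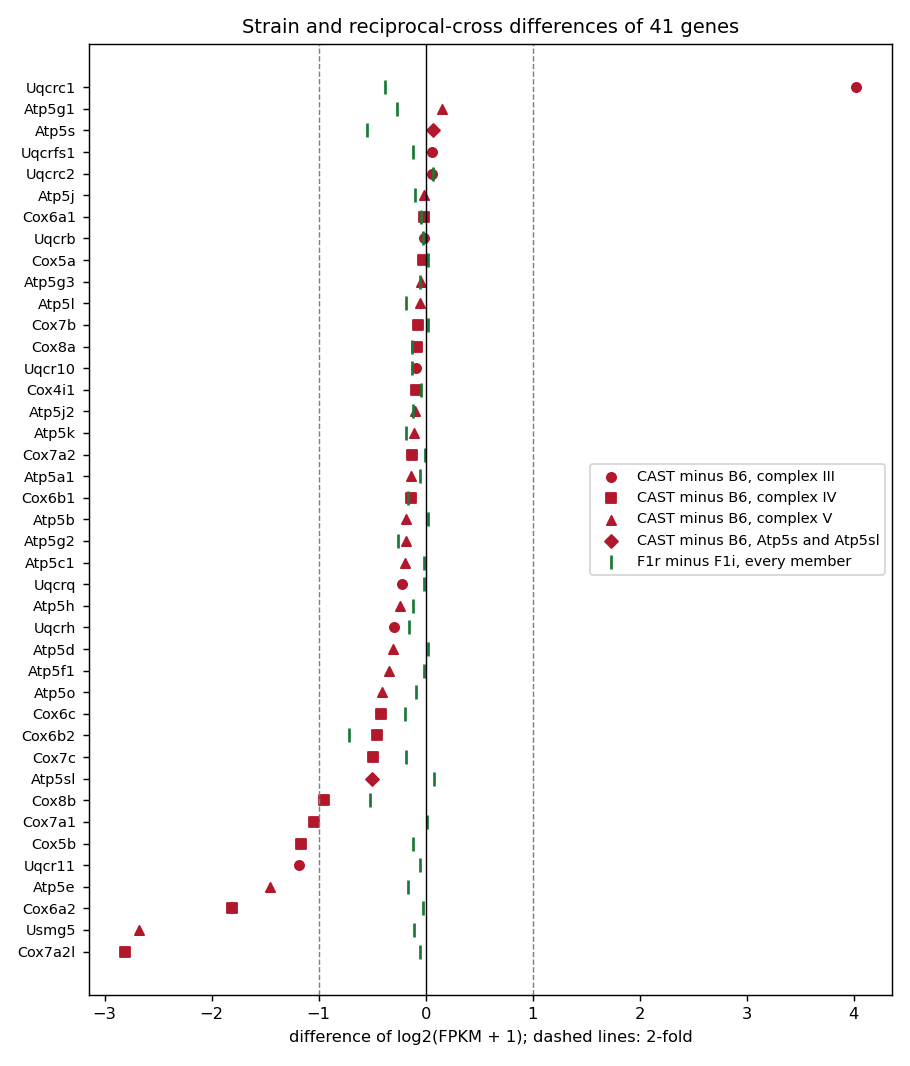
Differences of log2(FPKM + 1) of the 41 tested genes, CAST minus B6 as filled symbols by complex and F1r minus F1i as vertical ticks; dashed lines mark 2-fold. The symbols run from -2.81 for Cox7a2l to 4.02 for Uqcrc1, while every tick lies between -0.72 and 0.08.

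Complex III held one gene far above and one below. Uqcrc1, a core subunit related to mitochondrial processing peptidases, was at 17.9 FPKM in F1r, 23.6 in F1i, 40.95 in CAST and 1.59 in B6. CAST was thus highest and B6 far below the other three, a log2 difference of 4.02 for CAST minus B6. Its main transcript (1653 bases) followed, at 16.4 FPKM in F1r, 17.3 in F1i, 34.9 in CAST and 0.903 in B6. Only 0.394% of its 31-base words occurred in other genes, and no copy of it was found. Uqcrc2, the partner core subunit, was at 88.1 FPKM in F1r, 83.7 in F1i, 88.5 in CAST and 85.1 in B6, above Uqcrc1 in every library. A level of 1.59 FPKM is unusually low for a core subunit, and its cause cannot be read from FPKM tables, so the size of the Uqcrc1 difference is uncertain. A core gene of complex I, Ndufs3, was likewise at 0.148 FPKM in F1r, listed at 0 in F1i and CAST, and at 0.220 in B6.

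Uqcr11, the smallest subunit of complex III, was at 275 FPKM in F1r, 285.5 in F1i, 150.4 in CAST and 341 in B6. CAST was lowest and the hybrids stood nearer to B6; CAST minus B6 was -1.18. Its copy Gm16418, shown above, was at 55.6 FPKM in F1r, 63.0 in F1i, 43.0 in CAST and 35.6 in B6. When fragments of gene and copy were added, the difference was -1.09, still past 2-fold, whereas under a common total Uqcr11 was inside 2-fold. Uqcrh, the hinge protein that binds cytochrome c1, was the highest gene of the complex, at 315 FPKM in F1r, 353 in F1i, 309 in CAST and 380.5 in B6. The Rieske iron-sulfur protein gene Uqcrfs1 was at 92.4 FPKM in F1r, 100.3 in F1i, 98.0 in CAST and 94.2 in B6. Uqcrb, Uqcrq and Uqcr10, small supernumerary subunits, differed by -0.02, -0.22 and -0.09 for CAST minus B6.

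In complex IV the lower genes were Cox7a2l, Cox5b and a pair of muscle isoforms. Cox7a2l, also called SCAF1, joins complexes III and IV in supercomplexes and was grouped with complex IV by its name. It was at 70.5 FPKM in F1r, 73.3 in F1i, 17.2 in CAST and 126 in B6, the largest lower difference of the 41 genes (-2.81). Its copy Gm6969 ran the other way, at 48.7 FPKM in F1r, 50.7 in F1i, 80.0 in CAST and 18.2 in B6. In CAST the copy thus stood above the gene and in B6 below it. Added by length, gene and copy gave 86.0 FPKM in F1r, 89.3 in F1i, 42.6 in CAST and 132 in B6, a difference of -1.61. The sources used here do not say whether a CAST genome served for alignment, and its part in the difference was not tested.

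Cox5b, a zinc-binding nuclear subunit, was at 150.8 FPKM in F1r, 164 in F1i, 99.8 in CAST and 225 in B6, a difference of -1.17. Gm11273, which the annotation gives as protein-coding, was at 87.0 FPKM in F1r, 98.8 in F1i, 139 in CAST and 39.8 in B6. Again CAST had more of the copy than of the gene. With the copy added by length the difference was -0.41, inside 2-fold. Adding by length also weights the transcripts of Cox5b itself by their lengths, which the -1.17 does not. The change therefore cannot be credited to the copy alone. Cox5b was also inside 2-fold under a common total. A short Cox5b transcript of 362 bases was at 11.2 FPKM in F1r, 12.2 in F1i and 46.2 in B6, and was listed at 0 in CAST. By contrast, 2 other subunit genes were nearly level. Cox4i1, the widely used form of the regulatory subunit 4, was at 602 FPKM in F1r, 620.0 in F1i, 603 in CAST and 639.9 in B6, and Cox5a ranged from 170.5 to 178.5 FPKM.

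**Figure D3:**
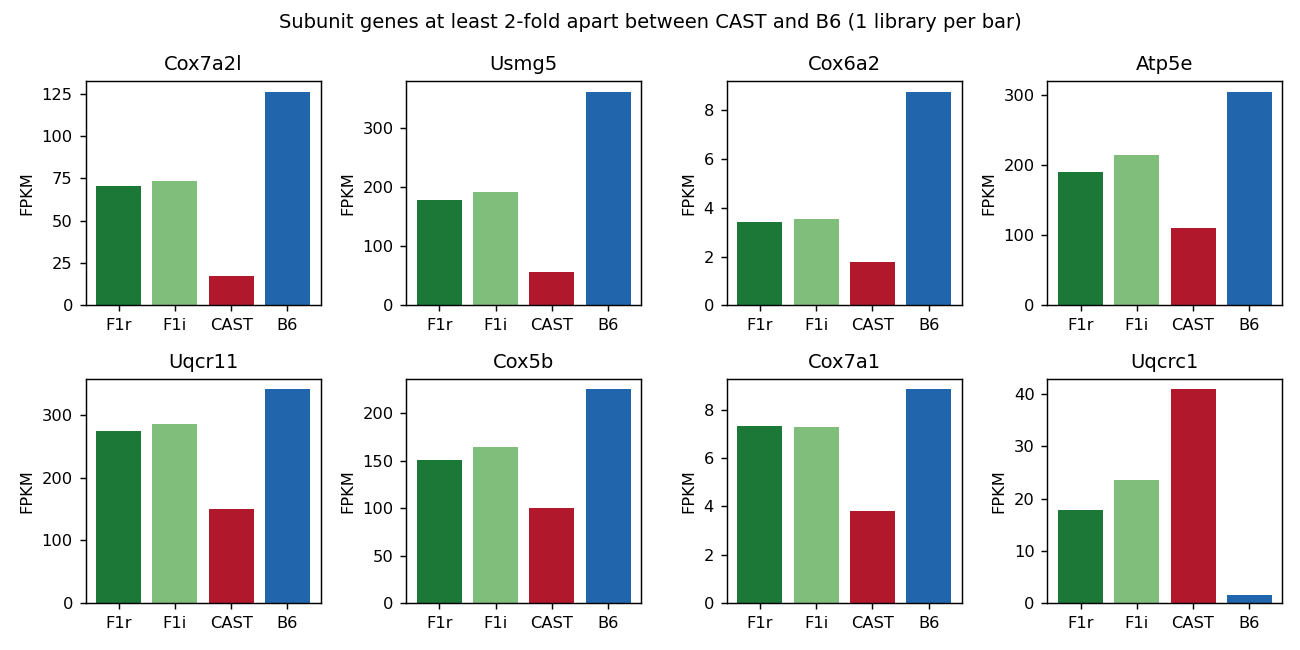
FPKM in F1r, F1i, CAST and B6 (1 library per bar, axes from 0) of the 8 genes at least 2-fold apart between CAST and B6. In each panel both hybrids lie between the parents, Uqcrc1 alone having CAST above B6.

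In complex V the lower genes were Usmg5 and Atp5e. Usmg5, whose product DAPIT sits in the membrane part of ATP synthase, was at 177 FPKM in F1r, 191.5 in F1i, 55.3 in CAST and 361 in B6, a difference of -2.68. CAST was lowest and the hybrids were near the middle of the strains. Of its 31-base words, 44.0% also occurred in other genes. Its copy Gm14539 was at 18.03 FPKM in F1r, 28.3 in F1i, 20.7 in CAST and 6.76 in B6, and with its 3 copies added the difference was -2.42. Usmg5 overlaps Taf5 on the opposite strand, which lay between 1.99 and 2.50 FPKM.

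Atp5e, the epsilon subunit of the central stalk, was at 189 FPKM in F1r, 214 in F1i, 110.0 in CAST and 304 in B6, a difference of -1.46. Only 0.0561% of its words occurred elsewhere, and no copy was found. The other rotor and head genes were close: Atp5a1, Atp5b, Atp5c1 and Atp5d, for the alpha, beta, gamma and delta subunits, differed by -0.14, -0.18, -0.19 and -0.31. Atp5k, for the small membrane subunit e, was the highest of the complex by its mean, at 712 FPKM in F1r, 804 in F1i, 759 in CAST and 821 in B6.

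Atp5h, for the peripheral stalk subunit d, differed little as a gene, at 214 FPKM in F1r, 233 in F1i, 226 in CAST and 266 in B6, but its transcript mix did. The 625-base transcript that dominated elsewhere made up 85.1% of the gene in F1r, 84.4% in F1i, 27.6% in CAST and 93.8% in B6. A 510-base transcript was instead at 14.3 FPKM in F1r, 4.46 in F1i, 115.6 in CAST and 2.28 in B6. CAST was the library apart in both. The Atp5h copy Gm10250 was at 95.6 FPKM in F1r, 95.3 in F1i, 154 in CAST and 45.2 in B6. With its 4 copies added by length the difference was 0.10, beside -0.24 for the gene alone without weighting by length. Because the transcript mix of CAST differed, this change cannot be credited to the copies alone.

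The reversed order of gene and copy recurred in some other genes. Atp5o, the OSCP subunit, was at 194 FPKM in F1r, 207 in F1i, 179.5 in CAST and 239 in B6, and its copy Gm5436 at 22.02 in F1r, 23.6 in F1i, 42.8 in CAST and 7.48 in B6. Cox7c, a small complex IV subunit with 3 copies, was at 302 FPKM in F1r, 343 in F1i, 282 in CAST and 397 in B6. Its copy Gm10012 was at 36.5 in F1r, 40.2 in F1i, 69.9 in CAST and 4.77 in B6. The higher copy Gm12338 was at 78.5 in F1r, 109.6 in F1i, 129.3 in CAST and 76.0 in B6, a difference of 0.76, inside 2-fold. Atp5o and Cox7c were lowest, and these copies highest, in CAST. With copies added by length, the differences were -0.14 for Atp5o and -0.22 for Cox7c. The genes alone gave -0.41 and -0.49 without weighting by length, so these changes cannot be credited to the copies alone.

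Altogether 51 copies were found, of 21 subunit genes. Of these, 22 had a mean FPKM of at least 1. Between CAST and B6, 9 of the 22 were at least 2-fold higher in CAST and 0 lower, with a median of 0.68. In all, 15 of the 22 were above 0. Gm10221 of Atp5l was lower in CAST, at 57.9 FPKM beside 74.6 in B6. So was Gm2962 of Uqcrb, at 30.0 FPKM in CAST and 35.1 in B6. Of all 684 processed pseudogenes compared, 30.1% were higher and 3.22% lower, beside 40.9% of the 22 copies that were higher. These sets are not alike. The 22 copies include the protein-coding Gm11273. They also include Gm14539, Gm35857, Gm12338 and Gm16418, which are shorter than the length limit used for all genes. Gm11273, Gm14539 and Gm35857 were among the 9 higher copies, whereas Gm12338 (0.76) and Gm16418 (0.26) were not. The percentages therefore cannot show an excess over other pseudogenes. Between the hybrids the 22 copies had a median difference of -0.08. Of the 7 lower subunit genes, 3 had under 5% of their words elsewhere, namely Atp5e, Cox6a2 and Cox7a1.

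**Figure D4:**
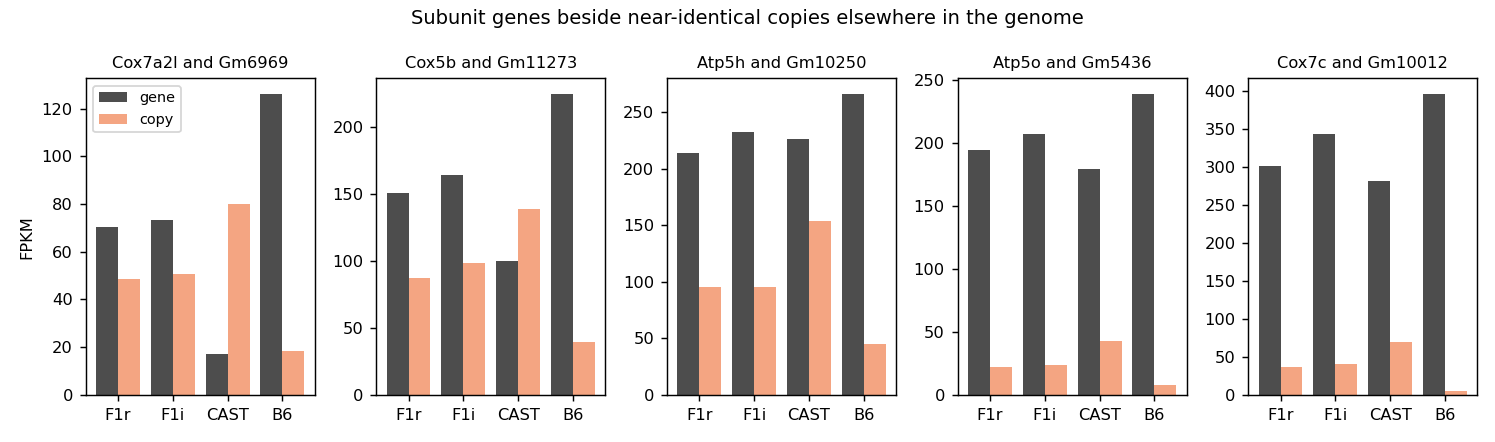
FPKM in F1r, F1i, CAST and B6 of 5 subunit genes (dark bars) and a near-identical copy of each (light bars), 1 library per bar. Each of these 5 copies is highest in CAST and lowest in B6, and stands above its gene in CAST for Cox7a2l and Cox5b. Not every copy had this order, Gm10221 of Atp5l being lower in CAST than in B6.

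The remaining subunit genes stayed inside 2-fold. Cox6c, a small membrane subunit of complex IV, differed by -0.42 for CAST minus B6, and Cox7a2, Cox7b and Cox6a1 by -0.13, -0.07 and -0.02. In the peripheral stalk of complex V, Atp5f1 (subunit b) differed by -0.34 and Atp5j (coupling factor 6) by -0.02. The membrane subunits f and g, encoded by Atp5j2 and Atp5l, differed by -0.10 and -0.05; Atp5l had 12 copies, the most of any gene here. Atp5sl, not an ATP synthase subunit, differed by -0.50 and Atp5s by 0.07.

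The widely used isoform led its tissue-restricted partner in every library. Cox6a1 was at 482 FPKM in F1r, 494 in F1i, 480.3 in CAST and 487 in B6. Cox6a2, its heart and skeletal muscle partner, was at 3.44 FPKM in F1r, 3.54 in F1i, 1.79 in CAST and 8.77 in B6, lowest in CAST and highest in B6 (-1.81 for CAST minus B6). The ubiquitous form thus led 140.3 times in F1r, 139.6 times in F1i, 268 times in CAST and 55.5 times in B6. Cox6a2 is also known from parvalbumin interneurons, whose 6 markers summed to 288 FPKM in F1r, 297 in F1i, 258 in CAST and 289.6 in B6, with 0 of 6 past 2-fold.

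Cox7a1, the muscle form of subunit 7a, was at 7.33 FPKM in F1r, 7.29 in F1i, 3.79 in CAST and 8.84 in B6 (-1.04), against 323 in F1r, 324.5 in F1i, 316 in CAST and 346 in B6 for its partner Cox7a2. Cox7a1 was inside 2-fold under a common total, also after the median of all genes was subtracted. Cox8b, the muscle form of subunit 8, was at 1.65 FPKM in F1r, 2.79 in F1i, 1.64 in CAST and 4.11 in B6, a difference of -0.95, just inside 2-fold. Cox8a was at 901 FPKM in F1r, 985 in F1i, 885 in CAST and 935.5 in B6. All 3 muscle isoforms were highest in B6 and lowest in CAST, though Cox8b was nearly level in F1r and CAST. The 8 markers of skeletal and heart muscle summed to 3.11 FPKM in F1r, 2.70 in F1i, 2.63 in CAST and 14.2 in B6. Only Acta1 passed the filter, at 2.26 FPKM in F1r, 1.90 in F1i, 1.98 in CAST and 5.17 in B6. Ckm and Tnnc2 were listed at 0 in CAST, Tnnt3 in F1r, and Actc1 in all but B6. Their part in the isoform differences was not tested.

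Of the remaining pairs, Cox6b2, the testis form of subunit 6b, was at 2.44 FPKM in F1r, 4.66 in F1i, 2.93 in CAST and 4.42 in B6, against 376 in F1r, 422 in F1i, 381 in CAST and 421 in B6 for Cox6b1. Cox4i2, known from lung and from pericytes, was at 0.815 FPKM in F1r, 0.761 in F1i, 0.172 in CAST and 1.40 in B6, below the filter. The 6 pericyte markers summed to 28.9 FPKM in F1r, 30.0 in F1i, 25.4 in CAST and 46.1 in B6, and 1 of the 4 that passed the filter, Vtn, was 2-fold lower in CAST; their part was not tested. Cox7b2, another testis form, was at most 0.765 FPKM, beside 143.7 to 150.5 FPKM for Cox7b. The 4 testis markers were listed at 0 in every library, as was the testis form Cox8c.

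The c subunit of the ATP synthase ring is encoded by 3 genes whose mature products are the same. Atp5g3 led, at 337 FPKM in F1r, 349 in F1i, 353 in CAST and 363 in B6. Atp5g1 was at 165 FPKM in F1r, 199 in F1i, 216 in CAST and 195 in B6, and Atp5g2 at 64.4 in F1r, 77.4 in F1i, 65.6 in CAST and 74.3 in B6. The order of the 3 genes was the same in each library. Atp5g3 exceeded Atp5g1 by 1.63 to 2.04 times and Atp5g2 by 4.51 to 5.38 times. Atp5g2 shared 40.2% of its words with other genes, Atp5g1 13.9% and Atp5g3 none. The Atp5g1 copy Gm10039 was at 50.7 FPKM in F1r, 60.65 in F1i, 80.8 in CAST and 52.5 in B6. Copies of Atp5g2 had a mean of at most 0.462 FPKM. The ratios above leave copies out.

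**Figure D5:**
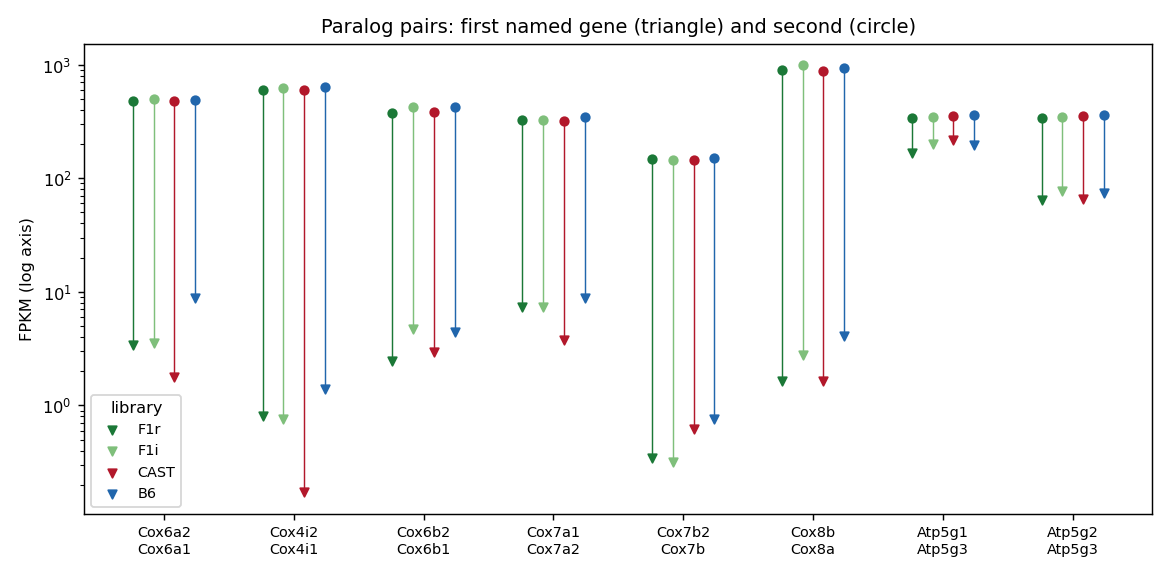
FPKM (log axis) of 8 paralog pairs, the gene named first as a triangle and the second as a circle, joined by a line for each library (F1r, F1i, CAST, B6). The 6 complex IV pairs are separated by 39.2 times or more in every library, and the ATP synthase c pairs by 1.63 to 5.38 times.

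Promoters of both members of a pair were compared for subunits 7a and 8, where the muscle isoform is far below its partner. The 250 bases before the start in RefSeq (GRCm38.p6) are shown in lower case with each CG in capitals.
Cox7a2 (chr9:79759854-79760103, minus strand): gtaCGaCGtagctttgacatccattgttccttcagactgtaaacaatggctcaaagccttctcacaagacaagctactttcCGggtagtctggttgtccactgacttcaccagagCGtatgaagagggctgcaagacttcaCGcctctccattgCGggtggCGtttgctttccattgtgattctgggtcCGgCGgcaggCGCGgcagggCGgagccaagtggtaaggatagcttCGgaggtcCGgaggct
Cox7a1 (chr7:30183921-30184170, plus strand): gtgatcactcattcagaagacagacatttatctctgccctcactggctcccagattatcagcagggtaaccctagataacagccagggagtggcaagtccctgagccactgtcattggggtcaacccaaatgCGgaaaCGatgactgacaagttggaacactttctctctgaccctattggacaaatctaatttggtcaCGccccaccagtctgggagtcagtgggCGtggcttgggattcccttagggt
Cox8a (chr19:7217617-7217866, minus strand): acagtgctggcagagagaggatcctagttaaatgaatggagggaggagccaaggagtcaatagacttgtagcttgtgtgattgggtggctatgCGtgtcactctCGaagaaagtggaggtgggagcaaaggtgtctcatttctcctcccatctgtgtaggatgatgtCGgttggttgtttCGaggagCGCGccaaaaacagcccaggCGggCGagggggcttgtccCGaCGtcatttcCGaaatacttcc
Cox8b (chr7:140900447-140900696, minus strand): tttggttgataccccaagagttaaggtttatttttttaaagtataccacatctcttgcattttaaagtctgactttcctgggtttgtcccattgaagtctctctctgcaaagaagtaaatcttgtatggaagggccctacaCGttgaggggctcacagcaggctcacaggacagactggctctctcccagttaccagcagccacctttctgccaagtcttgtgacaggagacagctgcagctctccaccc
Cox7a2 held 14 CG dinucleotides, 0.751 of the number its base composition gives, and Cox7a1 held 4, or 0.244. Cox8a held 11 (0.676) and Cox8b 1 (0.0726). The testis form Cox6b2 had 8 (0.43) against 14 (0.768) in Cox6b1, whereas Cox7b2 with 9 (0.567) exceeded Cox7b with 5 (0.431), so the order was not shared by every pair. Of 44 genes, 31 matched a RefSeq promoter. The motif of NRF-1, a factor known to drive respiratory genes, was searched as GCGCA, any base and GCGC. It was found on either strand in 4 of the 31 (12.9%; Atp5g2, Atp5h, Atp5k and Cox6a1), beside 3.86% of 27025 promoters. The motif CCGGAAGT of GABP, also called NRF-2, was in 3 (9.68%; Atp5h, Uqcr11 and Uqcrh), beside 2.93% of all. Neither motif contains the other, and a match describes the window only.

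Between the reciprocal hybrids 0 of the 41 genes were 2-fold apart; among the 13751 genes, 0.233% were 2-fold higher in F1r and 0.262% lower. The median difference was -0.10 (0.03 over all genes), and 34 of 41 genes were lower in F1r. After rescaling to a common total the median of all genes was 0.25 and that of the 41 was 0.16, or -0.09 relative to all genes. Cox6b2 differed most (-0.72), followed by Atp5s (-0.55), at 10.5 FPKM in F1r, 15.9 in F1i, 11.6 in CAST and 11.01 in B6. Cox8b followed with -0.52 and Uqcrc1 with -0.38. Atp5sl was highest relative to F1i, by 0.08.

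For the 8 genes apart between the strains, the place of each hybrid between the parents was computed on FPKM, with 0 at the B6 level and 1 at the CAST level. The median was 0.551 in F1r and 0.487 in F1i, with ranges of 0.299 to 0.764 and 0.292 to 0.749. Uqcr11 and Cox7a1 lay nearest to B6, Uqcr11 at 0.344 in F1r and 0.292 in F1i, and Cox7a1 at 0.299 in F1r and 0.307 in F1i. On FPKM Cox6a2 lay nearest to CAST, at 0.764 in F1r and 0.749 in F1i. Cox7a2l was at 0.511 in F1r and 0.486 in F1i, and Uqcrc1 at 0.414 in F1r and 0.559 in F1i. On the log2 scale Uqcrc1 was instead at 0.714 in F1r and 0.809 in F1i, nearest to CAST of the 8 genes, with Cox6a2 at 0.63 in F1r and 0.611 in F1i.

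For the mean of both hybrids less the mean of both parents, 1 gene, Uqcrc1, was 2-fold higher (1.05) and 0 were lower, with 0.284% and 0.0945% over all genes. That value came from averaging logarithms of the unlike parents. With the mean FPKM of each pair in place of the mean of logs, 0 of the 41 genes were 2-fold apart. By the same measure 6 of all 13751 genes were higher and 15 lower, so few genes of any kind were apart. Differences of the 41 genes ran from -0.48 for Cox6a2 to 0.21 for Atp5s. The median of the 41 genes by the mean of logs was -0.02.

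Few other genes of the pathway were 2-fold apart between the strains, but some of the sets also leaned to lower values in CAST. Of 8 partners and assembly factors of complex III none was 2-fold apart between CAST and B6 (median 0.04); Cyc1, cytochrome c1, was at 99.6 FPKM in F1r, 105.9 in F1i, 104 in CAST and 100.5 in B6. Of 25 complex IV assembly genes 1 was higher and 0 lower (median -0.04). That gene was Cox20, a chaperone for the mitochondrial subunit Cox2, at 12.7 FPKM in F1r, 1.89 in F1i, 11.9 in CAST and 0.496 in B6. F1r resembled CAST and F1i resembled B6 in this gene, with differences of 3.11 for CAST minus B6 and 2.25 for F1r minus F1i. None of 6 ATP synthase assembly genes and partners (median -0.08), 12 regulators (0.01), 4 complex II genes (-0.12) or 10 genes of mitochondrial mass (-0.12) was 2-fold apart. The median of all genes was 0.04, the same as for the complex III partners and close to that of the regulators.

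Among the regulators, Nrf1 was at 6.19 FPKM in F1r, 5.44 in F1i, 5.59 in CAST and 5.52 in B6, and Gabpa at 7.54 in F1r, 5.79 in F1i, 8.34 in CAST and 5.82 in B6. Gabpa overlaps Atp5j on the opposite strand. Of 44 tested genes with names of nuclear complex I, assembly factors and the complex IV subunit Ndufa4 included, 1 was lower and 0 higher (median -0.10). That gene was Ndufs5, at 100.1 FPKM in F1r, 98.8 in F1i, 28.4 in CAST and 183 in B6. The sum over all 46 such names was 3957.6 FPKM in F1r, 4237.6 in F1i, 3909.5 in CAST and 4416.1 in B6. A lean to lower values in CAST was thus not particular to complexes III to V.

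Libraries differed in depth and make-up. Depth relative to B6, estimated from transcripts at the worth of 1 fragment, was 0.725 in F1r, 0.809 in F1i and 0.71 in CAST; absolute depth is unknown, so no detection limit is given. Neuronal markers were present in all, with sums of 967 FPKM in CAST, the lowest, to 1129.6 in F1r, and 0 of 5 apart. Of the 5 oligodendrocyte markers 2 were lower in CAST, their sum being 1450.4 FPKM in F1r, 1564.5 in F1i, 1149.5 in CAST and 1860.3 in B6. None of 5 astrocyte, 4 microglial and 2 tested liver markers was 2-fold apart; liver markers, mostly Ttr of the choroid plexus, summed to 382 to 637 FPKM, and brown fat markers to at most 3.05. Medians for CAST minus B6 were -0.18 for neuronal, -0.16 for astrocyte, -0.32 for microglial and -0.72 for oligodendrocyte markers. The median of all genes was 0.04, so these markers also leaned to lower values in CAST. The part of these shifts in the differences of the subunit genes was not tested.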

How the data were processed

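Total RNA from pooled left hemispheres of 5 mice per group was made into strand-specific libraries, per the labels' protocols. The values are FPKM of single transcripts, as deposited by the authors. Their tools, per the submitters' processing notes, were Cufflinks 2.2.1, Cuffdiff, HISAT2, Trimmomatic 0.36 and bcl2fastq 2.20, with mm9 as the build and no roles stated; the sources used here do not give the strand setting or the treatment of reads with several matches. The coordinates are those of GRCm38: 127971 of 128603 transcripts (99.5%) were in GENCODE M21, 97.2% of them with the same start and end.

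Small RNA names and transcripts shorter than 200 bases were dropped, FPKM was summed per gene, and genes with a mean FPKM of at least 1 were compared by log2(FPKM + 1). Since each group had 1 library, genes at least 2-fold apart were counted and nothing was tested. Total FPKM was 1942710 in F1r, 2347990 in F1i, 1857428 in CAST and 2357188 in B6. Copies were genes of protein-coding or pseudogene type, at least 150 bases long, sharing at least 20 words of 31 bases and 10% of their own words with a subunit gene; the 150-base limit was set after seeing the data. To add a copy, FPKM times length was summed and divided by the length of the gene's main transcript. This also weights the gene's own transcripts by length, unlike the values of the gene alone. Genes without copies kept their summed FPKM. The main transcript made up at least 90% of the gene in every library in 26 of the 41 genes.

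The subunit genes, pathway lists and markers were chosen with earlier results of these data known. Values in all libraries were given for genes at least 2-fold apart, paralog pairs, Cox7a2l and the extremes of each complex; Uqcrc2, Uqcrfs1, Cox5a, Atp5h, Atp5o, Cox7c, Atp5s and their copies were added after their values were seen. Alternatives covered the pseudocount, filters, scaling, transcripts and copies. Steps were run in Python 3.11.15 with pandas 2.3.3, numpy 2.4.6 and Biopython 1.88, tested on simulated data, and drawn with matplotlib 3.10.9.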

Additional observations from a re-analysis of the deposited data

How the results depend on the processing

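Of 144 recomputed values, 124 stayed close to those reported and 20 moved; close means within 1.5 times for a count, 0.1 for a median, sum or position, and for an isoform ratio its standard deviation over the 4 libraries, which differs between pairs. Rescaling to a common total left 4 genes lower in CAST (Atp5e, Cox6a2, Cox7a2l and Usmg5), medians of 0.16 for CAST minus B6 and 0.16 for F1r minus F1i, sums at 0.07, 0.10 and 0.05 for complexes III, IV and V (with the median of all genes at 0.32; -0.34, -0.30 and -0.36 under median-ratio scaling), an F1r position of 0.414 and a log2 ratio of Cox6b2 to Cox6b1 of -6.16 (-6.47 as reported). It gave 0 genes higher in hybrids than in parents, as did the same scaling less the median of all genes and the log2 of the mean FPKM, the last 2 added after seeing the data; subtracting that median left 6 genes lower in CAST, without Cox7a1. Genes with under 5% of words elsewhere left 3 lower in CAST. The share of all genes past 2-fold is not given for these alternatives, so their counts have no background beside them. A pseudocount of 0.1 gave -6.80 for Cox6b2 to Cox6b1 and -8.55 for Cox8b to Cox8a (-8.09), and put Cox8b past 2-fold. Single transcripts gave -7.30 for Cox6b2 to Cox6b1, -0.45 for Atp5g1 to Atp5g3 (-0.86) and -1.85 for Atp5g2 to Atp5g3 (-2.30). They also put Atp5h in place of Cox5b among the lower genes. With copies added, Atp5g1 to Atp5g3 was -0.37. There Atp5g1 was weighted by transcript length and Atp5g3, without a copy, was not, so the move cannot be credited to the copies alone. Positions on the log2 scale were 0.424 in F1r and 0.343 in F1i. Apart from settings named here, the causes were not tested. Uqcrc1 was higher and Atp5e lower in CAST under every setting. With no filter Cox4i2 joined the lower genes, and a mean of at least 5 removed Cox6a2. No paired analysis was possible because each group was 1 library. Low isoforms such as Cox8b and Cox7b2 rest on an unknown number of fragments.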
